A study of Mus musculus with 12 samples.

Results

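The voltage-gated potassium channel (Kv) alpha subunits are the pore-forming and pore-modifying members of the Kcna, Kcnb, Kcnc, Kcnd, Kcnf, Kcng, Kcnh, Kcnq, Kcns and Kcnv gene families. Every gene symbol made of one of these family prefixes and a number was taken, with no filter on expression, which gave 40 genes, each on 1 row, among the 24490 rows of the expression table. Transcripts were measured in dorsal root ganglia (DRG), which hold the cell bodies of the sensory neurons of the body, from adult C57Bl/6 mice that carried no transgene. In the intact group, ganglia were frozen directly and each of the 4 samples came from 1 mouse. Each of the 4 unsorted samples came from the ganglia of 2 mice, which were digested with dispase, collagenase and DNAse, triturated, filtered and frozen. Each of the 4 MACS-sorted samples pooled 8 mice, whose dissociated cells were labelled with a biotinylated antibody cocktail against non-neuronal cells and passed through a magnetic column that retained the labelled cells. Magnetic cell sorting (MACS) of this kind is an exclusion and uses no marker of the neurons themselves.

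Kv alpha subunits assemble as tetramers around a potassium-selective pore and open when the membrane depolarizes. They repolarize the action potential, set the interval between spikes and hold back repetitive firing, and sensory neurons of different size and conduction velocity are known to carry different sets of them. The Kv1 to Kv4 families (Kcna, Kcnb, Kcnc and Kcnd) form delayed-rectifier and rapidly inactivating A-type channels, the Kv7 family (Kcnq) includes the subunits of the slow M-current, and the Kcnh family holds the EAG, ERG and ELK channels. The Kcnf, Kcng, Kcns and Kcnv subunits are called electrically silent because they form no channel alone and change the properties of Kv2 channels with which they combine.

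The 40 members share the pore, and the motif of its filter codons differs between some of the families and within Kcnc and Kcnh. Coding sequences of the GENCODE vM21 transcripts (mm10, the build of the deposited table) were searched in frame for the 4 codons of the potassium selectivity filter, written with N for any base and with a pyrimidine at the last position of the third codon. Each of the 40 members had exactly 1 match. The second and the fourth codons were GGN in every motif searched, so that a motif is named here by its first codon and the third. GTN with TAN was found in 20 members, CTN with TAN in 6, ATN with TAN in 5, TTN with TAN in 1, GTN with TTN in 7 and ATN with TTN in 1, and CTN with TTN was also searched and found in 0. Any of these motifs was found in 3.46% of 21562 protein-coding genes, each searched in its longest coding sequence, so the letters alone do not mark a potassium channel. The windows of 36 bases below show members of several of the families described, 5′ to 3′ on the coding strand, with the filter codons in capitals and the exon counted in the longest coding transcript.
Kcna1 (chr6:126642216-126642251, minus strand, exon 2 of 2): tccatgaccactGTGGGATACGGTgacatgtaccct
Kcna4 (chr2:107296486-107296521, plus strand, exon 2 of 2): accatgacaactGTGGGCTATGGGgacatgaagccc
Kcnb2 (chr1:15710037-15710072, plus strand, exon 2 of 2): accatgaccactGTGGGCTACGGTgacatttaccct
Kcnc2 (chr10:112456220-112456255, plus strand, exon 3 of 5): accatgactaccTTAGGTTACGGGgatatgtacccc
Kcnd3 (chr3:105459905-105658629, plus strand, exons 1 and 2 of 7, joined): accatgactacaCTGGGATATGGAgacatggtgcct
Kcng3 (chr17:83587902-83587937, minus strand, exon 2 of 2): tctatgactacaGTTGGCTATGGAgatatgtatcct
Kcnh2 (chr5:24325543-24325578, minus strand, exon 7 of 15): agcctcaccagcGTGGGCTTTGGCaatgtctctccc
Kcnh6 (chr11:106019067-106019102, plus strand, exon 6 of 13): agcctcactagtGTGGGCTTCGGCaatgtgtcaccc
Kcnh5 (chr12:75087454-75087489, minus strand, exon 7 of 11): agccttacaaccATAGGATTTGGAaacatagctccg
Kcns1 (chr2:164164842-164164877, minus strand, exon 4 of 4): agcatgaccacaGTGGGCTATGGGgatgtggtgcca
Kcnv1 (chr15:45109277-45109312, minus strand, exon 3 of 3): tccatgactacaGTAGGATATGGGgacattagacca
The Kcnh windows have a TTN codon in the third position where the other families have TAN. Kcnc2 was the only member with TTN as the first of the filter codons. These motifs are differences of bases, and the amino acids that they encode were not compared.

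Values are in FPKM, the fragments of a gene scaled to its transcript length and to all mapped fragments of the sample, so that levels can be compared between genes. To estimate depth, values were read as if they were 1 fragment, for an assumed fragment length of 150 bases. The depth most often implied within a preset range was an estimated 13600000 to 19400000 fragments per sample. Intact samples held 3502 to 3740 FPKM of the 8 pan-neuronal markers in sum, unsorted samples 4194 to 4523 FPKM and MACS-sorted samples 3769 to 4823 FPKM. Singly, 3 of these 8 genes were higher in MACS-sorted than in unsorted samples, 2 were lower and 3 did not pass the test. Small-diameter nociceptor markers were higher in MACS-sorted than in unsorted samples for 8 of 10 genes, whereas large-diameter neuron markers fell for 9 of 10 and their sum went from between 915 and 1136 FPKM to between 86.0 and 165 FPKM. Markers of satellite glia fell for 8 of 8 genes and those of Schwann cells for 7 of 8, with sums of 84.5 to 131 and 518 to 1212 FPKM left after sorting. Fibroblast markers fell for 5 of 6 genes, and of 5 pericyte and smooth muscle markers tested 4 fell and 1 rose. Endothelial markers did not pass for any of 6 genes. Their sums were 45.1 to 56.6 FPKM in unsorted and 14.3 to 79.0 FPKM in MACS-sorted samples. Red blood cell markers summed to 180 to 559 FPKM in unsorted and 2138 to 21674 FPKM in MACS-sorted samples. Intact replicate 1 stood apart, with 2853 FPKM of skeletal muscle markers against a median of 42.8 FPKM over the intact samples, and 27 of the 29 tested members had their lowest intact value in it. Unsorted replicates 1 and 2 were the most alike of all pairs within a group, with an SD of their log2 differences over genes of 0.335 against 0.352 to 0.804 for the other pairs, and both were kept.

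The 40 members together summed to 418 ± 75.6 FPKM (SD, n = 4) in intact, 565 ± 34.2 FPKM in unsorted and 390 ± 19.7 FPKM in MACS-sorted samples. Kcna was the largest family in unsorted ganglia, with 179 to 188 FPKM, and Kcnd was the largest in MACS-sorted samples, with 116 to 156 FPKM. The Kcna sum in MACS-sorted samples was 75.3 to 81.3 FPKM, below every unsorted sample. The Kcnd sum in unsorted samples was 88.4 to 102 FPKM, below every MACS-sorted sample. Sums of Kcnc (69.1 to 90.4 FPKM unsorted, 27.5 to 40.0 FPKM MACS-sorted), Kcnh (57.3 to 72.4 and 45.9 to 52.1 FPKM), Kcnq (40.6 to 51.9 and 14.5 to 17.3 FPKM) and Kcns (44.6 to 52.9 and 15.5 to 19.7 FPKM) also lay lower after sorting without overlap. The Kcng sum was 11.1 to 12.6 FPKM in unsorted and 13.2 to 18.2 FPKM in MACS-sorted samples.

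**Figure D1:**
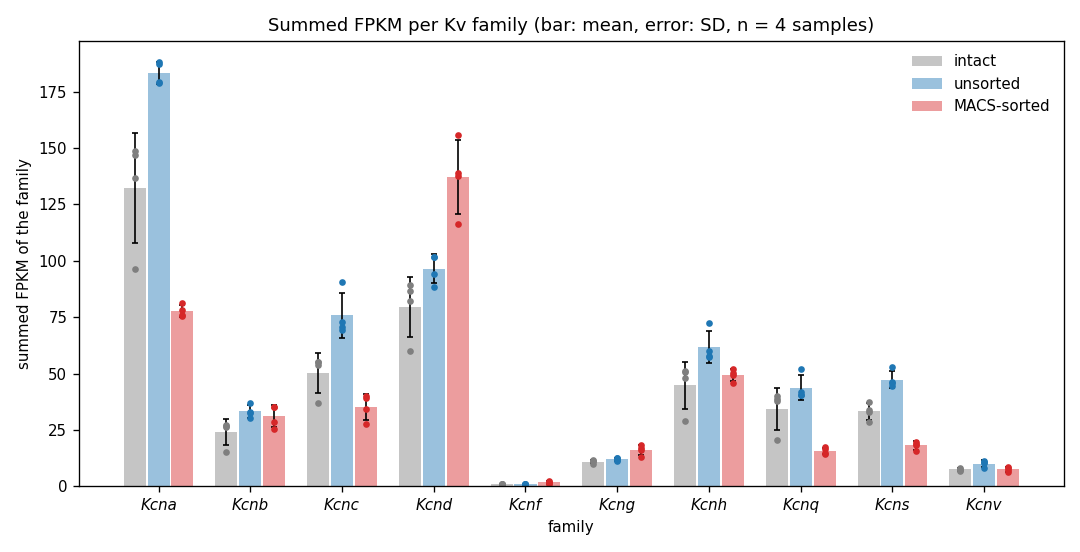
Summed FPKM of each Kv family (vertical axis) in intact, unsorted and MACS-sorted samples; bars are means over 4 samples, error bars are SD and points are samples. The Kcna sum falls from 183 FPKM in unsorted to 77.6 FPKM in MACS-sorted samples, while the Kcnd sum rises from 96.5 to 137 FPKM.

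The comparison of MACS-sorted with unsorted samples, by which the study defined nociceptor genes, divided the Kv members. Transcripts of Kcnh6, Kcng2, Kcng3, Kcnc2, Kcnd3, Kcna4 and Kcnd1 were higher after sorting, by 1.23-fold to 2.74-fold in the ratio of group means. Transcripts of Kcnh5, Kcna1, Kcng4 and Kcnc1 were lower, by 5.69-fold to 12.4-fold. Of the 29 members whose FPKM averaged 1 or more across the 8 samples compared, 7 rose and 17 fell at an adjusted p under 0.05 in limma, and 5 did not pass. Among all 12038 genes tested, 18.8% rose and 27.7% fell. At an unadjusted p under 0.05 the members counted were also 7 higher and 17 lower, against 22.7% and 31.2% of all genes. The median log2-fold change was -0.62 over the tested members and -0.04 over all genes tested. In bulk RNA, fewer cells of a type and less RNA per cell cannot be told apart.

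With the further criteria of the study, a log2 ratio of group means beyond 0.5 and more than 5 FPKM as the mean of whichever group was higher, 6 members were higher and 13 lower, against 8.15% and 12.5% of all genes tested. The study then also removed, as red blood cell contamination, genes that rose with sorting and were high in published erythrocyte data. Such genes were kept in the shares given here, and 8 of 8 tested red blood cell markers rose. Values of the 4 MACS-sorted samples lay wholly above those of the 4 unsorted samples for 7 members and wholly below them for 17, and the same was seen for 18.4% and 27.8% of all genes tested. Kcnd1, at a log2-fold change of 0.29, rose without meeting the ratio criterion, and Kcnv1 fell although the 2 groups overlapped. Among the members whose values are given in every sample below, the calls for Kcnd1, Kcnc4 and Kcnv1 were lost under some alternatives. With samples rescaled to their pan-neuronal markers, Kcnd1 had a log2-fold change of 0.21 and did not pass (limma adjusted p = 0.0741). The markers of large-diameter neurons and of glia that moved with these members are given above, and their part in the member changes was not tested.

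The comparison of unsorted with intact samples asks what dissociation without sorting went with, and it shares the unsorted samples with the first comparison. Kcns1, Kcnb2, Kcnc1, Kcnh2, Kcna1 and Kcnq5 were higher in unsorted samples, by 1.49-fold to 1.82-fold in the ratio of group means, and met the criteria of the study. In all, 13 of 29 tested members rose and 0 fell in limma, where 14.8% of 12392 genes rose and 7.79% fell. At an unadjusted p under 0.05, 16 members were higher and 0 lower, against 22.4% and 15.1% of all genes. The criteria of the study were met by 8 members higher and 0 lower, against 4.29% and 2.76% of all genes. Unsorted values lay wholly above intact values for 16 members and wholly below for 0, against 20.8% and 12% of all genes tested. The median log2-fold change was 0.43 over the members and 0.01 over all genes tested. Markers of cell types moved in the same comparison. Large-diameter neuron markers rose for 7 of 10 genes, with a sum of 631 to 807 FPKM in intact and 915 to 1136 FPKM in unsorted samples. Pvalb, 1 of the 10 genes in these sums, was at 441 FPKM in intact replicate 1, the sample with skeletal muscle transcripts. It was at 61.8 to 67.8 FPKM in the other intact samples. Pan-neuronal markers rose for 4 of 8 and small-diameter nociceptor markers for 3 of 10. Satellite glia markers rose for 5 of 8 genes and endothelial markers for 6 of 6, whereas fibroblast markers fell for 6 of 6, macrophage markers for 5 of 6 and skeletal muscle markers for 6 of 8. Schwann cell markers did not pass for any of 8 genes. The part of these markers in the member changes was not tested.

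This second set of calls depended on the scaling and on single libraries. With samples rescaled to their pan-neuronal markers, which moved the median of all genes to -0.25, 6 members rose and 2 fell in place of 13 and 0. The 2 that fell were Kcnh6 (log2-fold change = -0.41, limma adjusted p = 0.0327) and Kcnc2 (log2-fold change = -0.39, limma adjusted p = 0.0251), relative to pan-neuronal markers whose own sums were higher in unsorted samples. Without intact replicate 1, 16 members rose, with Kcna2 (limma adjusted p = 0.00639), Kcna4 (limma adjusted p = 0.0478) and Kcnd1 (limma adjusted p = 0.0197) added, and Kcnh6 fell (log2-fold change = -0.30, SE 0.07, limma adjusted p = 0.0127). The log2-fold changes were smaller without intact replicate 1. They were 0.23 for Kcna2, 0.20 for Kcna4 and 0.26 for Kcnd1, against 0.43, 0.25 and 0.41 with it. For Kcns1, Kcnb2, Kcnc1, Kcnh2, Kcna1 and Kcnq5 they were 0.43 to 0.74, against 0.57 to 0.87 with it. Without intact replicate 4 the count of members that rose was 7, and without unsorted replicates 1, 2, 3 and 4 it was 6, 8, 5 and 8.

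**Figure D2:**
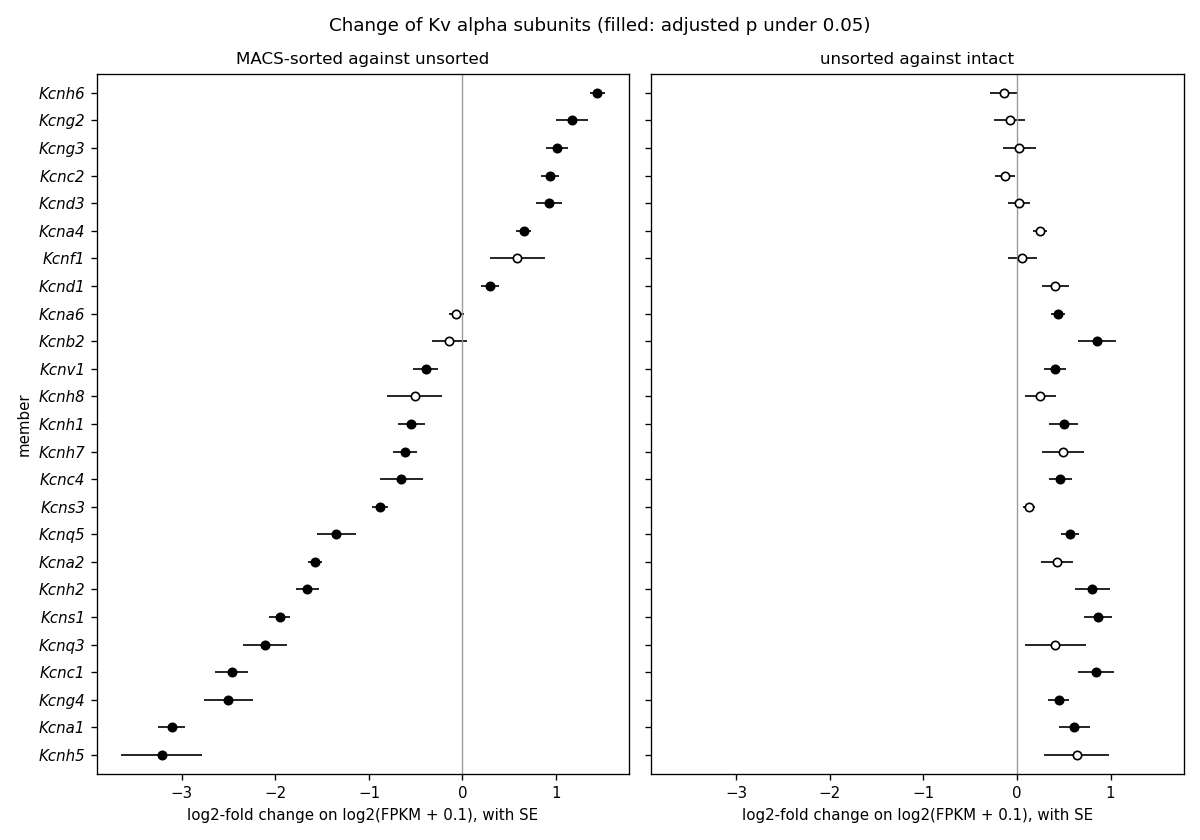
Log2-fold change on the log2(FPKM + 0.1) scale (horizontal axis, with SE) of 25 tested members, MACS-sorted against unsorted on the left and unsorted against intact on the right; filled circles passed the limma test at an adjusted p under 0.05. On the left, 7 filled circles lie above 0 and 14 below, and on the right 11 lie above 0 and 0 below.

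Kv4 subunits form somatodendritic A-type channels that inactivate rapidly and are known in small-diameter sensory neurons. Kcnd1, which encodes Kv4.1, had the highest mean over all 12 samples of the 40 members, at 37.5, 58.1, 53.5 and 57.6 FPKM in intact replicates 1 to 4 and 63.4, 70.4, 74.9 and 62.5 FPKM in unsorted replicates 1 to 4. Its MACS-sorted values were 76.6, 96.5, 83.8 and 76.1 FPKM in the same order of replicates, which is used throughout. All MACS-sorted values were above all unsorted values, although the lowest of them, 76.1 FPKM, was close to the highest unsorted value of 74.9 FPKM (log2-fold change = 0.29, SE 0.09, limma adjusted p = 0.0294). Against intact samples, the unsorted values were higher without overlap and the difference did not pass (log2-fold change = 0.41, SE 0.14, limma adjusted p = 0.0692). Kcnd3, which encodes Kv4.3, was at 22.4, 31.1, 28.2 and 28.4 FPKM in intact and 29.9, 30.6, 25.9 and 25.0 FPKM in unsorted samples. It reached 39.4, 59.0, 53.7 and 62.5 FPKM after sorting, so that the lowest sorted sample exceeded the highest unsorted one. The rise was 1.93-fold in the ratio of means (log2-fold change = 0.93, SE 0.14, limma adjusted p = 0.000495), and unsorted and intact values overlapped (log2-fold change = 0.02, SE 0.11, limma adjusted p = 0.907). The third member, Kcnd2 for Kv4.2, ranged from 0.232 to 0.924 FPKM over the 12 samples and was below the filter of the test. Exons of Kcnd3 overlap those of the opposite-strand transcript Kcnd3os.

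The Shaker-related Kv1 family contains low-threshold delayed rectifiers and the A-type subunit Kv1.4. Kcna1 and Kcna2 encode Kv1.1 and Kv1.2, which are known from the juxtaparanodes of myelinated axons and from large-diameter sensory neurons. Kcna1 was the most abundant member in unsorted ganglia, at 76.5, 76.4, 83.0 and 86.2 FPKM, with intact values of 36.02, 61.4, 63.6 and 54.3 FPKM. After sorting it was at 9.63, 6.57, 10.3 and 11.1 FPKM. No sorted sample came near the other groups, and the ratio of means was 8.56-fold lower than in unsorted samples (log2-fold change = -3.11, SE 0.15, limma adjusted p = 5.14e-07). Against intact ganglia the unsorted level rose (log2-fold change = 0.61, SE 0.17, limma adjusted p = 0.0302). Kcna2 was at 27.8, 50.0, 48.4 and 46.1 FPKM in intact, 56.6, 55.7, 59.3 and 55.1 FPKM in unsorted and 17.9, 17.0, 20.8 and 20.2 FPKM in MACS-sorted samples. It fell 2.98-fold with sorting (log2-fold change = -1.58, SE 0.08, limma adjusted p = 6.20e-07) and was higher in unsorted than intact samples without passing (log2-fold change = 0.43, SE 0.17, limma adjusted p = 0.102). It kept a larger share of its level than Kcna1 did, at 19.0 ± 1.79 against 9.41 ± 1.99 FPKM (SD, n = 4) after sorting.

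Kcna4 encodes Kv1.4, an A-type subunit known from small-diameter nociceptors. Its levels were 4.63, 5.45, 5.05 and 5.47 FPKM in intact, 6.44, 6.21, 5.75 and 6.06 FPKM in unsorted and 9.05, 9.79, 9.55 and 10.4 FPKM in MACS-sorted samples. The 3 groups did not overlap, and Kcna4 rose 1.58-fold with sorting (log2-fold change = 0.65, SE 0.08, limma adjusted p = 0.000117). The step from intact to unsorted did not pass (log2-fold change = 0.25, SE 0.08, limma adjusted p = 0.0559). Kcna6, which encodes Kv1.6 and was picked out after its values were seen, was at 38.8, 39.6, 38.8 and 38.8 FPKM in unsorted and 39.8, 39.8, 38.4 and 31.6 FPKM in MACS-sorted samples. Its level after sorting overlapped that before (log2-fold change = -0.07, SE 0.08, limma adjusted p = 0.540), although it had risen from 25.6, 30.9, 28.9 and 29.9 FPKM in intact ganglia (log2-fold change = 0.44, SE 0.07, limma adjusted p = 0.00560). The Kcna6 exons overlap those of the opposite-strand transcript Gm26673, and whether the authors' counting used strand was not given in the sources used here. Kcna1, Kcna2, Kcna4 and Kcna6 were the 4 of 8 Kcna genes that passed the filter.

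The Kv3 family (Kcnc) forms high-threshold channels with fast deactivation, which are known from neurons that fire at high rates, and it split between its members. Kcnc1, for Kv3.1, was at 6.69, 10.8, 10.6 and 10.5 FPKM in intact, 14.2, 15.1, 22.6 and 17.6 FPKM in unsorted and 3.90, 2.45, 3.06 and 2.79 FPKM in MACS-sorted samples. It fell 5.69-fold (log2-fold change = -2.47, SE 0.17, limma adjusted p = 4.92e-06) after having risen from intact to unsorted (log2-fold change = 0.85, SE 0.19, limma adjusted p = 0.0160). The 4 sorted values lay below every value of the other groups.

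Kcnc2, for Kv3.2, went the other way with sorting. It was at 5.23, 5.55, 4.73 and 6.03 FPKM in intact and 5.29, 5.33, 4.19 and 4.85 FPKM in unsorted samples, which overlapped (log2-fold change = -0.13, SE 0.11, limma adjusted p = 0.396). In MACS-sorted samples it was at 9.77, 8.84, 9.69 and 9.61 FPKM, above every other sample, a rise of 1.93-fold (log2-fold change = 0.94, SE 0.10, limma adjusted p = 4.65e-05). Kcnc4, for the A-type subunit Kv3.4, was at 15.7, 21.8, 20.7 and 21.0 FPKM in intact, 26.9, 27.5, 31.5 and 23.2 FPKM in unsorted and 21.5, 19.5, 21.2 and 9.85 FPKM in MACS-sorted samples. MACS-sorted replicate 4 was far below the other 3, which lay close to the intact level. Kcnc4 fell with sorting (log2-fold change = -0.65, SE 0.23, limma adjusted p = 0.0413), a log2-fold change that was -0.39 without that replicate (limma adjusted p = 0.0108), and it rose from intact to unsorted (log2-fold change = 0.46, SE 0.13, limma adjusted p = 0.0305).

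**Figure D3:**
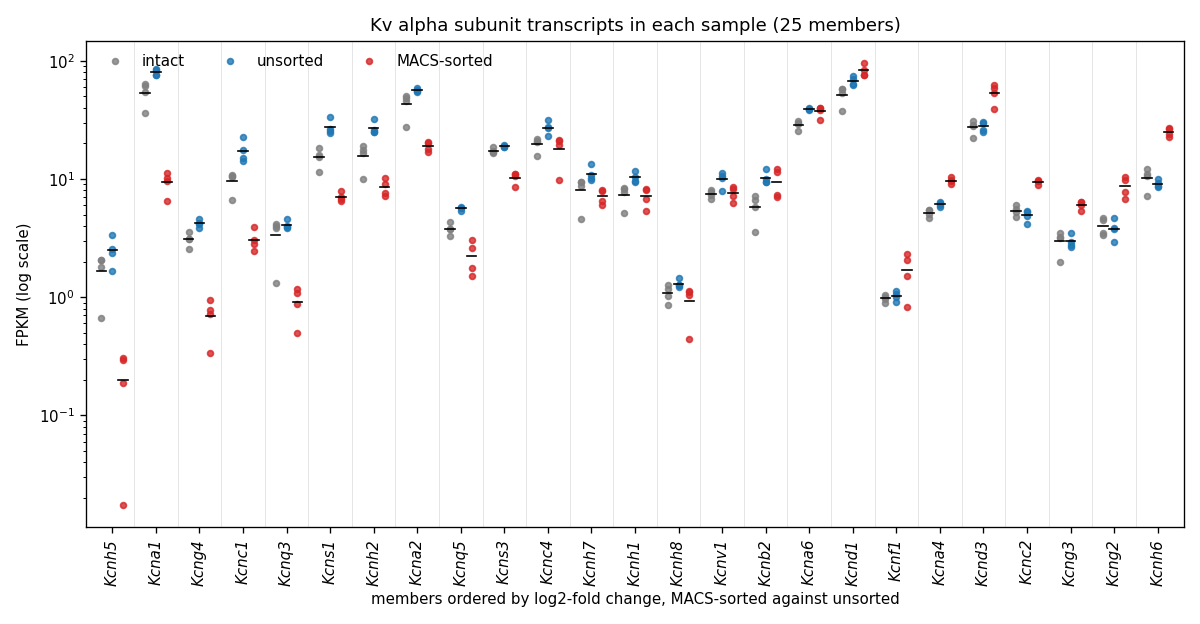
FPKM of 25 tested members (vertical axis, log scale) in the 12 samples, grouped as intact, unsorted and MACS-sorted; points are samples and black lines are group means, and members are ordered by their log2-fold change with sorting. Kcnh5, at the left, has MACS-sorted values below all unsorted values, and Kcnh6, at the right, has MACS-sorted values of 22.8 to 27.0 FPKM above all others.

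Kv2 channels carry the main delayed-rectifier current of many neuronal cell bodies, and silent subunits combine with them. Kcnb2, for Kv2.2, was at 3.56, 7.11, 5.78 and 6.59 FPKM in intact, 9.41, 9.38, 12.1 and 9.96 FPKM in unsorted and 12.04, 7.11, 11.4 and 7.31 FPKM in MACS-sorted samples. Its sorted samples fell into values near 7 FPKM, below every unsorted value, and near 12 FPKM, within the unsorted range (log2-fold change = -0.14, SE 0.18, limma adjusted p = 0.564). From intact to unsorted it rose 1.77-fold without overlap (log2-fold change = 0.85, SE 0.20, limma adjusted p = 0.0190).

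Silent subunits moved in both directions with sorting: of 10 genes, 7 were tested, 2 rose, 4 fell and 1 did not pass, where 18.8% of all genes tested rose and 27.7% fell. Both that rose were Kcng genes. Kcng2, for Kv6.2, was at 4.63, 3.34, 3.47 and 4.53 FPKM in intact and 4.65, 3.83, 3.75 and 2.91 FPKM in unsorted samples, which overlapped (log2-fold change = -0.08, SE 0.16, limma adjusted p = 0.750). After sorting it was at 7.81, 9.76, 10.4 and 6.72 FPKM, a rise of 2.29-fold (log2-fold change = 1.17, SE 0.17, limma adjusted p = 0.000424). Its exons overlap those of the opposite-strand transcript D330025C20Rik. Kcng3, for Kv6.3, was at 1.99, 3.52, 3.15 and 3.20 FPKM in intact and 2.67, 2.76, 2.96 and 3.47 FPKM in unsorted samples (log2-fold change = 0.02, SE 0.18, limma adjusted p = 0.939). It was at 6.38, 5.41, 6.37 and 6.06 FPKM in the sorted samples, each of which exceeded all others, a rise of 2.04-fold (log2-fold change = 1.01, SE 0.11, limma adjusted p = 8.05e-05).

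Kcng4, for Kv6.4, was the Kcng member that fell with sorting. It was at 2.54, 3.10, 3.58 and 3.10 FPKM in intact, 4.24, 3.87, 4.55 and 4.15 FPKM in unsorted and 0.938, 0.725, 0.786 and 0.335 FPKM in MACS-sorted samples. The groups did not overlap, the fall was 6.04-fold (log2-fold change = -2.50, SE 0.26, limma adjusted p = 4.73e-05), and the unsorted level was above the intact level (log2-fold change = 0.45, SE 0.11, limma adjusted p = 0.0241). A median of about 44.2 fragments lay behind its sorted values, by the estimate of depth above. Kcns1, for Kv9.1, is known from myelinated sensory neurons. It was at 11.4, 15.3, 18.4 and 15.8 FPKM in intact, 25.7, 24.7, 33.8 and 26.6 FPKM in unsorted and 7.85, 6.49, 7.09 and 6.73 FPKM in MACS-sorted samples. It fell 3.94-fold with sorting (log2-fold change = -1.95, SE 0.11, limma adjusted p = 1.35e-06) and had risen 1.82-fold with dissociation (log2-fold change = 0.87, SE 0.15, limma adjusted p = 0.00693), with no overlap in either comparison.

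Kcns3, for Kv9.3, was even across samples within each group, at 16.5, 16.9, 18.6 and 17.4 FPKM in intact, 19.1, 19.3, 18.6 and 18.7 FPKM in unsorted and 10.6, 11.03, 10.95 and 8.54 FPKM in MACS-sorted samples. It fell 1.84-fold with sorting (log2-fold change = -0.88, SE 0.09, limma adjusted p = 4.28e-05) and did not pass between unsorted and intact (log2-fold change = 0.13, SE 0.06, limma adjusted p = 0.176). Kcnv1, for Kv8.1, was at 6.73, 7.81, 7.30 and 8.09 FPKM in intact, 11.2, 10.2, 7.96 and 10.7 FPKM in unsorted and 8.63, 7.22, 8.29 and 6.23 FPKM in MACS-sorted samples. Its groups overlapped in both comparisons through unsorted replicate 3, which was lower than the other unsorted samples. Kcnv1 fell with sorting (log2-fold change = -0.40, SE 0.14, limma adjusted p = 0.0380) and rose with dissociation (log2-fold change = 0.41, SE 0.12, limma adjusted p = 0.0342), by 1.32-fold and 1.34-fold in the ratio of means. Kcnf1, for Kv5.1, was near 1 FPKM in intact (0.899, 0.970, 0.997 and 1.05 FPKM) and unsorted samples (0.907, 0.999, 1.06 and 1.13 FPKM). Its sorted values of 1.52, 2.34, 2.07 and 0.834 FPKM were spread on both sides of these (log2-fold change = 0.59, SE 0.30, limma adjusted p = 0.134), and without MACS-sorted replicate 4 Kcnf1 passed as higher (log2-fold change = 0.87, limma adjusted p = 0.00534), and unsorted and intact values overlapped (log2-fold change = 0.06, SE 0.15, limma adjusted p = 0.819).

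The Kv7 family (Kcnq) includes the subunits of the M-current, a non-inactivating current that damps repetitive firing. Kcnq5, for Kv7.5, was at 3.28, 4.29, 3.81 and 3.75 FPKM in intact, 5.81, 5.66, 5.35 and 5.70 FPKM in unsorted and 3.07, 1.76, 2.63 and 1.498 FPKM in MACS-sorted samples. It fell 2.52-fold with sorting (log2-fold change = -1.35, SE 0.21, limma adjusted p = 0.000516) and rose 1.49-fold with dissociation (log2-fold change = 0.57, SE 0.09, limma adjusted p = 0.00509), and its exons overlap the opposite-strand transcript Gm26580. Kcnq3, for Kv7.3 and named after its values were seen, was at 3.99, 3.82, 4.63 and 3.93 FPKM in unsorted and 1.07, 0.883, 1.16 and 0.501 FPKM in MACS-sorted samples (log2-fold change = -2.11, SE 0.23, limma adjusted p = 7.25e-05). Kcnq1, the cardiac and epithelial member, was listed at 0 in all 4 intact samples and in MACS-sorted replicates 3 and 4. The unsorted samples held 0.239 to 0.447 FPKM of it, and the remaining MACS-sorted samples 0.458 and 0.440 FPKM. It overlaps the antisense RNA Kcnq1ot1.

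In the Kcnh family, Kcnh6 was the member that rose. It encodes Kv11.2, an ERG channel of neurons, and it was at 7.25, 10.6, 11.1 and 12.1 FPKM in intact and 8.68, 9.32, 9.98 and 8.63 FPKM in unsorted samples (log2-fold change = -0.14, SE 0.15, limma adjusted p = 0.511). MACS-sorted samples held 22.8, 27.0, 23.8 and 26.6 FPKM. This was the rise of the greatest size among the tested members, 2.74-fold, with every sorted value above every other sample (log2-fold change = 1.44, SE 0.08, limma adjusted p = 1.64e-06). Its relative Kcnh2, for Kv11.1 or ERG1, was at 10.1, 16.5, 18.9 and 17.6 FPKM in intact, 25.0, 25.1, 32.2 and 26.0 FPKM in unsorted and 7.25, 9.001, 7.68 and 10.3 FPKM in MACS-sorted samples. Kcnh2 fell 3.17-fold with sorting (log2-fold change = -1.66, SE 0.13, limma adjusted p = 7.95e-06) after a rise from intact to unsorted (log2-fold change = 0.81, SE 0.19, limma adjusted p = 0.0188). In unsorted ganglia Kcnh2 was the more abundant ERG transcript, at 27.1 ± 3.47 FPKM (SD, n = 4) against 9.15 ± 0.635 FPKM for Kcnh6. In MACS-sorted samples the order was turned, at 8.55 ± 1.37 FPKM for Kcnh2 against 25.0 ± 2.06 FPKM for Kcnh6.

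Kcnh7, the third ERG gene (Kv11.3), was at 4.58, 9.497, 8.77 and 9.37 FPKM in intact, 9.77, 10.3, 13.3 and 10.7 FPKM in unsorted and 7.98, 6.06, 8.03 and 6.55 FPKM in MACS-sorted samples. It fell 1.54-fold with sorting (log2-fold change = -0.62, SE 0.13, limma adjusted p = 0.00331) and did not pass between unsorted and intact (log2-fold change = 0.50, SE 0.23, limma adjusted p = 0.142). Its exons overlap those of Gca on the opposite strand. The EAG genes Kcnh1 (Kv10.1) and Kcnh5 (Kv10.2) differed in level. Kcnh1 was at 5.16, 8.19, 8.47 and 7.75 FPKM in intact, 9.66, 9.52, 11.8 and 10.4 FPKM in unsorted and 6.76, 8.15, 8.25 and 5.32 FPKM in MACS-sorted samples, and it fell 1.45-fold with sorting (log2-fold change = -0.55, SE 0.14, limma adjusted p = 0.0113) and rose with dissociation (log2-fold change = 0.50, SE 0.16, limma adjusted p = 0.0490). The call of Kcnh1 with dissociation was lost under 14 of 20 alternatives. Kcnh5 was at 0.666, 1.81, 2.07 and 2.06 FPKM in intact, 2.36, 1.66, 3.35 and 2.58 FPKM in unsorted and 0.186, 0.307, 0.293 and 0.0174 FPKM in MACS-sorted samples. Every sorted value was below the others, and the fall was 12.4-fold in the ratio of means (log2-fold change = -3.22, SE 0.43, limma adjusted p = 0.000241), on a median of about 14.4 fragments in the sorted samples. The unsorted and intact values of Kcnh5 overlapped (log2-fold change = 0.64, SE 0.35, limma adjusted p = 0.214). Kcnh8, an ELK gene named after its values were seen, was at or below 1.46 FPKM in all samples (log2-fold change = -0.51, SE 0.29, limma adjusted p = 0.185).

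The calls with sorting are given by filter codons as a description, beside 18.8% of all genes that rose and 27.7% that fell. Of the 20 members with GTN as the first codon and TAN as the third, 3 rose, 6 fell, 4 did not pass and 7 were not tested with sorting. Of the 6 with CTN and TAN, 2 rose, 3 fell and 1 was not tested. Of the 7 with GTN and TTN, 1 rose, 3 fell, 1 did not pass and 2 were not tested. The members with the remaining motifs are not split here, so these counts do not compare all motifs.

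Shares of the summed Kv signal show the change of composition without regard to the total. Kcna1 held 14.3% ± 0.981 (SD, n = 4) of the FPKM of the 40 members in unsorted and 2.43% ± 0.584 in MACS-sorted samples. The share of Kcnd1 went from 12% ± 0.636 before to 21.3% ± 1.64 after sorting, and that of Kcnd3 from 4.96% ± 0.679 to 13.8% ± 2.67. Kcna6, with an even level, went from 6.92% ± 0.426 to 9.60% ± 0.857, and Kcnh6 from 1.62% ± 0.0548 to 6.44% ± 0.603. Intact and unsorted shares were nearer to each other, with Kcnd1 at 12.4% ± 0.530 and Kcna1 at 12.8% ± 0.962 in intact ganglia. By mean FPKM the leading members were Kcna1, Kcnd1 and Kcna2 in intact and unsorted ganglia and Kcnd1, Kcnd3 and Kcna6 after sorting.

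**Figure D4:**
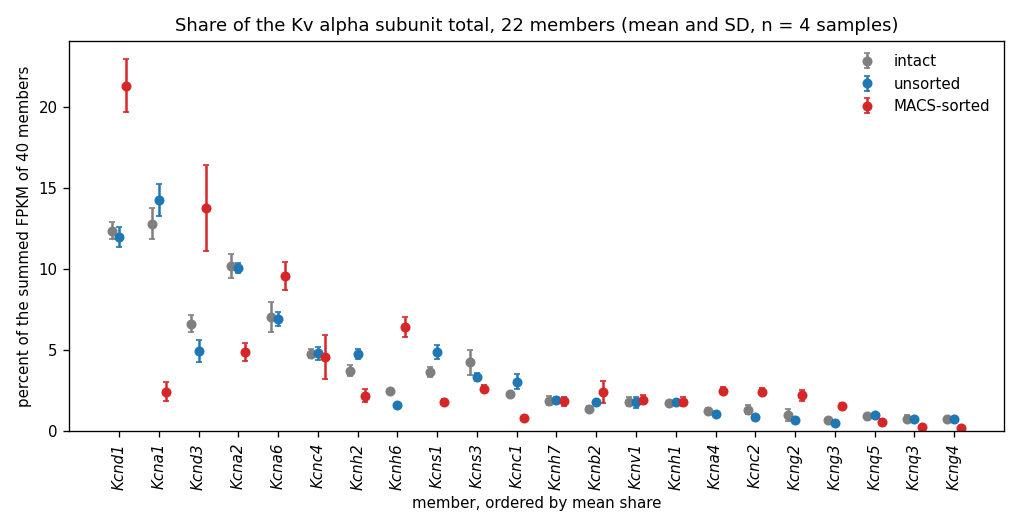
Percent of the summed FPKM of the 40 members (vertical axis) held by each of 22 abundant members, in intact, unsorted and MACS-sorted samples; points are means over 4 samples and error bars are SD. Kcnd1, Kcnd3, Kcna6 and Kcnh6 hold more of the total in MACS-sorted samples, and Kcna1 drops from 14.3% to 2.43%.

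Proteins that bind Kv alpha subunits were followed as a list of 26 genes, of which 20 were tested with sorting. Of these, 6 rose, 7 fell and 7 did not pass, against 18.8% and 27.7% of all genes that rose and fell, with a median log2-fold change of -0.05. The potassium channel interacting proteins that attach to Kv4 channels moved apart. Kcnip2 was at 44.3 FPKM in the mean of unsorted and 102 FPKM in that of MACS-sorted samples (log2-fold change = 1.18, SE 0.14, limma adjusted p = 9.82e-05), and Kcnip4 at 71.4 and 153 FPKM (log2-fold change = 1.09, SE 0.11, limma adjusted p = 3.97e-05). Kcnip1 went from 14.2 to 4.48 FPKM (log2-fold change = -1.64, SE 0.13, limma adjusted p = 1.13e-05) and Kcnip3 from 69.3 to 38.9 FPKM (log2-fold change = -0.83, SE 0.09, limma adjusted p = 4.46e-05). Of the 4 genes of this group, 2 rose as Kcnd1 and Kcnd3 did, and 2 fell. The dipeptidyl-peptidase-like Kv4 subunit Dpp10 rose from 41.9 to 79.5 FPKM (log2-fold change = 0.92, SE 0.10, limma adjusted p = 7.63e-05), whereas its relative Dpp6 was at 109 and 104 FPKM (log2-fold change = -0.08, SE 0.10, limma adjusted p = 0.499).

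The partners of Kv1 channels at the juxtaparanode include Cntnap2, which encodes Caspr2, and the scaffold Dlg2, which encodes PSD-93. Cntnap2 fell from 43.1 to 15.4 FPKM with sorting (log2-fold change = -1.50, SE 0.13, limma adjusted p = 1.88e-05) and Dlg2 from 12.8 to 1.88 FPKM (log2-fold change = -2.71, SE 0.15, limma adjusted p = 1.20e-06). The adhesion protein Cntn2, which binds Caspr2, was at 32.7 FPKM in both groups (log2-fold change = 0.00, SE 0.08, limma adjusted p = 0.989). Stx1a, for a syntaxin that binds Kv channels, rose from 14.4 to 28.6 FPKM (log2-fold change = 0.99, SE 0.07, limma adjusted p = 7.29e-06). Of 21 partner genes tested between unsorted and intact samples, 6 rose, 0 fell and 15 did not pass, against 14.8% of all genes that rose and 7.79% that fell, and Cntnap2 (log2-fold change = 0.63, SE 0.13, limma adjusted p = 0.0103) and Dlg2 (log2-fold change = 0.78, SE 0.18, limma adjusted p = 0.0189) were among those that rose.

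The 11 members below the filter in both comparisons were Kcna3, Kcna5, Kcna7, Kcna10, Kcnd2, Kcng1, Kcnh3, Kcnh4, Kcnq1, Kcns2 and Kcnv2. Group means of these members were at or below 1.27 FPKM, the level of Kcna3 in MACS-sorted samples. Kcna3, for Kv1.3, was at 0.202, 0.509, 0.368 and 0.478 FPKM in intact, 0.223, 0.298, 0.334 and 0.210 FPKM in unsorted and 0.448, 1.62, 1.38 and 1.63 FPKM in MACS-sorted samples. Its sorted values were above all unsorted values, although that of replicate 1 lay within the intact range, on a median of about 41.8 fragments, and they were not tested. Kcna7, for the muscle channel Kv1.7, was at 1.81 FPKM in intact replicate 1, the sample with skeletal muscle transcripts, and at or below 0.0804 FPKM in the other samples, 5 of which listed it at 0. Kcnh4 was listed at 0 in 6 samples, Kcna10 in 3 and Kcnv2 in 9. Trmt112, a gene of translation that cells of every type use, was also listed at 0 in 8 of the 12 samples, so a listed 0 gives no bound on the level.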

How the data were processed

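RNA from 4 intact, 4 unsorted and 4 MACS-sorted DRG samples was poly(A)-selected and sequenced with a directional kit. The authors aligned reads to mm10 with TopHat2, allowing up to 2 alignments per read, merged lanes with SAMtools and estimated expression with Cufflinks 2.1.1 per the labels and methods. The table they deposited gives 1 FPKM value for each of its rows in each sample and no read counts. Rows were tested as genes, although 269 symbols are on more than 1 row, none of them a member. Outside the alternatives the values were used without rescaling. Whether counting used strand was not given in the sources used here. Depth was estimated from 9027 genes with 1 transcript start, as the depth most often implied, within a preset range, when a value stands for 1 fragment. The peak held 48 to 144 genes per sample, so the estimate is rough, and precision at low levels is set by few fragments.

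Groups followed the sample titles. Each comparison was fitted with limma 3.58.1 in R 4.3.3 to log2(FPKM + 0.1) values, letting the variance follow the mean, over genes that averaged 1 FPKM or more in the 8 samples compared, with two-sided tests and Benjamini-Hochberg adjustment over all genes tested. limma took the place of CuffDiff, which needs aligned reads. Fold changes on this scale understate the change of low genes, and ratios of group means are named as such. The labels call the samples separate replicates but say of no sample which animals gave it. The script was tested on simulated data. Alternatives were the pseudocount, filter, trend, scaling, samples in the fit, a replicate block and each replicate left out.

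Members, gene lists and tests were chosen with earlier results of these data known. Values in every sample are given for members that met the study criteria, the 6 members with the greatest absolute log2-fold change in each comparison and the most abundant member of each family, and partner genes for the 8 of greatest absolute log2-fold change among those that passed. Kcna3, Kcna6, Kcna7, Kcnh8, Kcnq1, Kcnq3, Cntn2 and Dpp6 fall outside this rule and were named after their values were seen. Another 4 members stayed in every fit, count and sum but are not reported here singly. Replicate numbers were not taken to pair samples across groups, except in the replicate block. Errors are SD over 4 samples unless given as SE.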

Additional observations from a re-analysis of the deposited data

Results flagged for a closer look

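Of 72 groups of 4 samples tested, 6 had 1 sample whose gap to the nearest other exceeded Dixon's 95% critical value, and chance gives about 1 in 20. Intact replicate 1, the sample with skeletal muscle transcripts, accounted for 3 of them, each as the lowest value. Kcnc1 was at 6.69 FPKM in intact replicate 1 against 10.5 to 10.8 FPKM in the other intact samples, Kcnh7 at 4.58 FPKM against 8.77 to 9.497 FPKM, and Kcnq3 at 1.32 FPKM against 3.88 to 4.13 FPKM.

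The other 3 lay in the dissociated samples. Kcna6 in unsorted replicate 2, at 39.6 FPKM, stood above the other 3 at 38.8 FPKM, a difference that is small in size because those values were nearly equal. Kcna6 in MACS-sorted replicate 4 was at 31.6 FPKM, below the remaining MACS-sorted replicates at 38.4 to 39.8 FPKM. Kcnh2 in unsorted replicate 3 was at 32.2 FPKM, above 25.0 to 26.0 FPKM in the other unsorted samples.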

How the results depend on the processing

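With sorting, the counts of members that rose and fell stayed within 1.5 times of 7 and 17 under every alternative run. They ranged from 6 to 8 and from 15 to 17 with single replicates left out, and were 8 and 16 without MACS-sorted replicates 3 and 4, which held the most haemoglobin RNA (an alternative chosen after seeing the data). With a log2 ratio beyond 1 in place of 0.5, the study criteria were met by 3 members higher and 8 lower. Rescaling to pan-neuronal markers moved the median of all genes to -0.12 and quantile normalization moved it to 0.10. Of the members named by rule, 6 of 7 that rose and 11 of 13 that fell kept their call under every alternative that could test them. The exceptions were Kcnd1, lost under 8 of 21 alternatives, Kcnc4, lost under 7, and Kcnv1, lost under 12. Kcnf1, not called as reported, passed as higher under 3 alternatives: quantile normalization (log2-fold change 1.04, limma adjusted p = 0.0215), MACS-sorted replicate 4 left out, and MACS-sorted replicates 3 and 4 left out together (limma adjusted p = 0.0195). The adjusted p of Kcnd1 reached 0.1, that of Kcnc4 0.106 and that of Kcnv1 0.133.

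Between unsorted and intact samples, the 13 members that rose became 8 with all 12 samples in one fit, 7 with red blood cell genes removed, 6 with pan-neuronal scaling, where 2 fell, and 7 with unsorted replicates 1 and 2 averaged. With single replicates left out the count ranged from 5 to 16, and the count that fell from 0 to 1. Members meeting the study criteria, 8 as reported, were 0 at a log2 ratio beyond 1, 5 with pan-neuronal scaling, 5 with unsorted replicates 1 and 2 averaged and between 4 and 9 with single replicates left out, with 5 without unsorted replicate 1 and 4 without unsorted replicate 3. Kcnc1 and Kcns1 kept their call under every alternative that could test them, and the 8 other members named by rule that rose lost it under 1 to 14. Kcnh1 lost it under 14 of 20, Kcnc4 and Kcnv1 under 10, Kcna1 under 9 and Kcng4 under 7 of 19. Kcnb2, Kcnh2 and Kcnq5 each lost it under 1. Kcna6, outside that rule, did not pass with pan-neuronal scaling (log2-fold change = 0.17, limma adjusted p = 0.0565). Partner genes that rose, 6 as reported, were 3 with quantile normalization, 2 with red blood cell genes removed and 2 with pan-neuronal scaling, and those that fell, 0 as reported, were 1 with no filter, 1 with quantile normalization, 4 with pan-neuronal scaling and 0 to 1 with single replicates left out. The cause of these changes was not tested.

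Kcnh8, outside the naming rule, was not called with sorting, and its log2-fold change of -0.51 became 0.07 with quantile normalization. Among the members and partner genes named by rule, log2-fold changes that changed sign all belonged to genes not called between unsorted and intact samples. With pan-neuronal scaling they were -0.015 for Kcna4, -0.24 for Kcnd3, -0.19 for Kcnf1, -0.23 for Kcng3, -0.14 for Kcns3 and -0.15 for Kcnip3. With quantile normalization the value was -0.034 for Kcnd3, and with unsorted replicates 1 and 2 averaged -0.019 for Kcnd3. With single replicates left out, Kcnd3 ranged from -0.073 to 0.084, Kcng2 from -0.18 to 0.037, Kcng3 from -0.15 to 0.11 and Dpp10 from -0.093 to 0.024. Without intact replicate 1 the values were -0.073 for Kcnd3, -0.15 for Kcng3 and 0.024 for Dpp10. Without unsorted replicate 1 and replicate 2 Kcnd3 was at -0.013 and -0.025. Without unsorted replicate 3 Dpp10 was at 0.0043, and without unsorted replicate 4 Kcng2 was at 0.037 and Kcng3 at -0.053.

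Replicate numbers gave no clear sign of pairing, which these correlations cannot exclude. Deviations of same-numbered samples from their group means correlated at -0.04 to 0.05 between MACS-sorted and unsorted and at -0.14 to 0.05 between unsorted and intact samples. For samples of different number the correlations were -0.26 to 0.17 and -0.10 to 0.12. With the replicate number as a replicate block, 7 members rose and 16 fell with sorting, and 13 rose and 0 fell between unsorted and intact samples. At the stricter filter of 5 FPKM, members with lower means could not be tested. At the estimated depth, members such as Kcnh5 and Kcng4 rest on medians of about 14.4 and 44.2 fragments in MACS-sorted samples, so the sizes of their falls are less certain than the directions.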

Other observations

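Some Kv genes lie next to each other in the mouse genome (mm10), and their levels with sorting are given here side by side. On chromosome 6, Kcna5, Kcna1 and Kcna6 follow each other with gaps of 100.9 and 62.5 kb. Kcna1 fell 8.56-fold with sorting, whereas Kcna6 was 1.04-fold lower in the ratio of means and did not pass and Kcna5 was below the filter. On chromosome 3, Kcna3, Kcna2, Kcna10 and Kcnc4 are separated by gaps of 63.4, 68.1 and 242.6 kb. Kcna2 fell 2.98-fold with sorting and Kcnc4 fell 1.52-fold, and Kcna3, below the filter, had a mean of 0.267 FPKM in unsorted and 1.27 FPKM in MACS-sorted samples. These neighbours were picked out after their values were seen.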
